A study of Mus musculus with 39 samples.

Results

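Urea cycle and periportal genes were followed in whole mouse liver during phenobarbital treatment, with E-cadherin set against the enzymes of nitrogen and amino acid metabolism. The members were 10 genes given by name: Cps1, Otc, Ass1, Asl, Arg1, Gls2, Hal, Sds, Cdh1 and Hsd17b13. A member was measured by the probe sets whose only symbol in the platform annotation was that gene. This gave 8 members with 11 probe sets, of 18193 genes with such a probe set, and all 8 were among the 12580 genes tested. Gls2 and Sds were not analysed here.

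The livers came from male B6C3F1/Crl mice, offspring of a C57BL/6 male and a C3H/He female, which were 29 to 32 days old on arrival and had 5 days to acclimatise. Treated mice received phenobarbital at 0.05% (w/v) in their drinking water, and controls did not, for 1, 7, 28 or 91 days, so that later groups were also older. Of the 39 Affymetrix arrays in 8 groups, the controls of day 1 had 4 and every other group 5. Nothing in the labels ties an array to an animal of its own, so the spread behind the p-values is that between arrays and may be technical. All values are deposited log2 signals, on which a difference of 1 is a doubling.

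The urea cycle turns ammonia into urea. Its enzymes, with several enzymes that break down amino acids, are known to be most abundant in hepatocytes near the portal vein. E-cadherin, the product of Cdh1, is the calcium-dependent adhesion protein of epithelial junctions, and in mouse liver it is known from periportal hepatocytes and bile duct cells. An RNA extract of whole liver keeps no positions, and in it fewer cells of a type and less RNA per cell cannot be told apart.

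The hepatocyte markers were near the top of every array, with a list mean between 14.54 and 14.69, and arrays of the same group correlated at 0.989 to 0.996. Replicate 3 of the day 1 phenobarbital group stood apart: its mean of 6 exocrine pancreas markers was 11.14, against 6.34 to 6.49 on the other 4 arrays of that group. Replicate 3 of the day 7 phenobarbital group had a neutrophil marker mean of 8.90, while every other array lay below 7, and its Kupffer cell marker mean was 10.56, against 8.74 to 9.38 on the other arrays of its group. The mean of 18 spike-in probe sets differed between treated and control arrays by -0.25 at day 1, 0.89 at day 7, -0.34 at day 28 and 0.22 at day 91 (adjusted p 0.0272, 0.0272, 0.0476 and 0.450, exact 2-sided permutation tests, 12 tests). The array median was lower in treated arrays at all 4 times, by -0.04, -0.04, -0.03 and -0.05 (adjusted p = 0.0272 each, among the same 12 exact tests). The gap between 3′ and 5′ probe sets for Actb and Gapdh, which reads RNA breakdown and incomplete labelling, was lower in treated than in control arrays at day 28 by the same test, at 0.461 against 0.663 (adjusted p = 0.0272). At days 1, 7 and 91 this gap differed by -0.09, -0.03 and 0.05 (adjusted p 0.0635, 0.324 and 0.571, among the same 12 exact tests).

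The starts of 4 members were in the RefSeq promoter table of build GRCm38.p6 (250 bases before to 50 after the start). They are shown because they were in that table, and they were not picked by their response. Of these, Otc, Ass1 and Hsd17b13 were lower under phenobarbital at days 1 and 28, and Hal was not called. Capitals mark matches on either strand to 5 motifs: CACCTG, the E-box that Snail-type repressors of Cdh1 can bind; TATAAA, the TATA box; GGGCGG, the GC box; CCAAT, the CCAAT box; and AGGTCA, a nuclear receptor half-site. Each sequence runs 5′ to 3′ on the strand of its gene.
Otc, chrX:10252055-10252354, plus strand: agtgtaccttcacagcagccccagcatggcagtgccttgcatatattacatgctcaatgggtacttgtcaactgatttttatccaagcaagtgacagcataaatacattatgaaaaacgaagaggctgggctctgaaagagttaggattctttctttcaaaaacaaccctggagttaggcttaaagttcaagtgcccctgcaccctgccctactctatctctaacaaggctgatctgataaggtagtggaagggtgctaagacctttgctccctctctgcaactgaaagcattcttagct
Ass1, chr2:31470020-31470319, plus strand: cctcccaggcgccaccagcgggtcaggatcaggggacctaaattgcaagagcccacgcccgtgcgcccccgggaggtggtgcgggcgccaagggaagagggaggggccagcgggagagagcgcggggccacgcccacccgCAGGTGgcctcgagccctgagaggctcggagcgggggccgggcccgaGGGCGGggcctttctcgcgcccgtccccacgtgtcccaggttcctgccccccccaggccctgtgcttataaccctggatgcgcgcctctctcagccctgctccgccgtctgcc
Hsd17b13, chr5:103977339-103977638, minus strand: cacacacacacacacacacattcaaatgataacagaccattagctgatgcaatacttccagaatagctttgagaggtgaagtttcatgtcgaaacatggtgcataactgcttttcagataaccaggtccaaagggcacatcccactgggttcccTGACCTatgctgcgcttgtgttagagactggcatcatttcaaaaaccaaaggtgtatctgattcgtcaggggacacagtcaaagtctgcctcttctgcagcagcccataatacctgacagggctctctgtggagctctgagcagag
Hal, chr10:93488518-93488817, plus strand: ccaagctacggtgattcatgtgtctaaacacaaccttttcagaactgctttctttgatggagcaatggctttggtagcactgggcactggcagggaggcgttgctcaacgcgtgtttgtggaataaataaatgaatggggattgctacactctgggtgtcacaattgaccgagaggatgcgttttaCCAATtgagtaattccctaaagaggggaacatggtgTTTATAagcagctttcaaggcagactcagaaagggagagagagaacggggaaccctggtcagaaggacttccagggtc
The Otc window held none of the 5 motifs. The Ass1 window held the GC box at -63 and, on the other strand, the E-box at -110. The Hsd17b13 window held the half-site on the other strand at -96. The Hal window held the CCAAT box at -64 and the TATA box on the other strand at -28. Positions give the leftmost base on the printed strand, with -1 just before the start. Of 32851 promoters of the same length, 20.2% held the E-box, 13.6% the TATA box, 35.7% the GC box, 37.4% the CCAAT box and 16.3% the half-site. Because the Otc window held none of these motifs, no motif could be shared by the 3 windows of the genes that were lower.

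Otc, Ass1 and Hsd17b13 were lower and Asl was higher under phenobarbital at days 1 and 28, Arg1 was lower at day 28, and Cdh1 was higher at day 91. Ass1 was read from 1 dim probe set, at the 63.6th to 92.5th percentile, and a probe set shared with a pseudogene was not used. At day 1, 4 of the 8 members were called at an adjusted p under 0.05 (limma, Benjamini-Hochberg over all genes), 1 higher and 3 lower, where 32.5% of all tested genes were called, 15.8% higher and 16.7% lower. At day 7, 0 members were called by limma, 2 had an unadjusted p under 0.05 (Otc and Cdh1), and 17.0% of all genes were called, 5.64% higher and 11.4% lower. At day 28, 5 members were called, 1 higher and 4 lower, against 29.2% of all genes, 11.2% higher and 18.1% lower. At day 91, Cdh1 alone of the 8 was called, higher, against 20.7% of all genes, 4.62% higher and 16.1% lower. The all-gene split depends on scaling: with each array centred on its median, the higher and lower calls numbered 2683 and 1579 at day 1, 931 and 879 at day 7, 1938 and 1692 at day 28, and 792 and 1076 at day 91. The median change of the members was -0.16, 0.08, -0.10 and 0.00 at days 1, 7, 28 and 91, beside 0.01, -0.05, -0.02 and -0.07 over all genes tested.

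**Figure D1:**
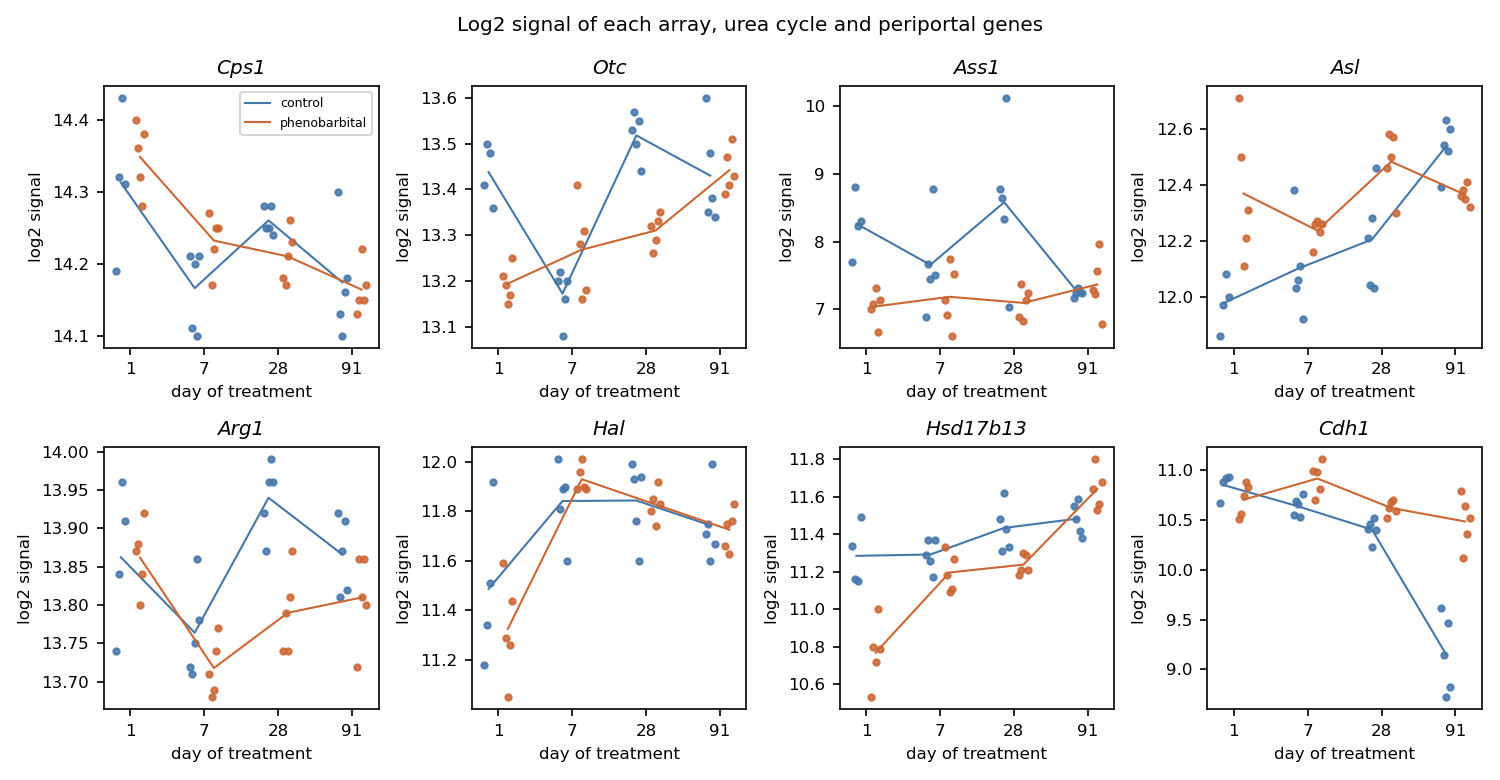
Log2 signal (vertical axis) of every array by day of treatment (horizontal axis) for the 8 measured members, with points for arrays and lines through the group means of controls and phenobarbital. The day 91 Cdh1 panel shows controls between 8.72 and 9.62 and treated livers between 10.12 and 10.79, and the vertical scale differs between panels.

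Cps1 (chr1:67122426-67231267, GRCm38.p6), the mitochondrial enzyme that makes carbamoyl phosphate from ammonia and starts the cycle, was the brightest member, at the 99.8th to 99.9th percentile of every array. Its signal ran from 14.10 to 14.43 over all 39 arrays, and treated and control arrays overlapped on every day. Its change was 0.03, 0.07, -0.05 and -0.01 at days 1, 7, 28 and 91 (adjusted p 0.513, 0.197, 0.293 and 0.893). The 95% confidence interval at day 91 ran from -0.08 to 0.06.

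Otc (chrX:10252230-10321024) encodes the mitochondrial enzyme that joins carbamoyl phosphate to ornithine. The day 1 controls read 13.41, 13.50, 13.48 and 13.36 and the treated livers 13.21, 13.19, 13.15, 13.17 and 13.25. The day 28 controls read 13.53, 13.57, 13.50, 13.55 and 13.44 and the treated livers 13.32, 13.26, 13.29, 13.33 and 13.35. Every treated array lay below every control on both days, a separation in one direction or the other that 25.9% and 15.4% of all genes showed. The differences were -0.24 (SE 0.05, adjusted p = 0.000138) and -0.21 (SE 0.04, adjusted p = 0.000625). At days 7 and 91 the groups overlapped and the differences were 0.10 and 0.01 (adjusted p 0.117 and 0.847).

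Otc had 2 further probe sets, tested in a fit over all probe sets. The dimmer 1425540_at gave -0.34, 0.31, -0.46 and 0.31 at days 1, 7, 28 and 91, all 4 called (adjusted p 0.0162, 0.0367, 0.000819 and 0.0297). 1436615_a_at gave -0.50 and 0.29 at days 1 and 7 (adjusted p 0.000190 and 0.0292), and -0.11 and 0.11 at days 28 and 91 (adjusted p 0.383 and 0.415). The 3 probe sets therefore had the same sign on each day and differed in size and in call. The sign of the Otc change was that of the spike-in difference on each day, and a link between them was not tested. At day 91 the spike-in difference was not called, nor was the change of the brightest Otc probe set. With the spike-in covariate Otc stayed lower at days 1 and 28, and with the 3′ minus 5′ difference as a covariate its day 28 value was -0.13 and not called (adjusted p = 0.0928).

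Ass1 (chr2:31470270-31520670), which joins citrulline to aspartate, was represented by the dim probe set 1459937_at, at the 63.6th to 92.5th percentile. Another probe set, listed under both Ass1 and the pseudogene Gm5424, was not used. The day 1 controls read 7.70, 8.81, 8.23 and 8.31 and the treated livers 7.01, 7.08, 7.31, 6.67 and 7.14. All treated arrays lay below the controls, and the difference was -1.22 (SE 0.35, adjusted p = 0.00672). The day 28 controls were scattered, at 8.77, 8.64, 8.33, 10.12 and 7.04, while the treated livers read 6.89, 7.38, 6.82, 7.14 and 7.24. That difference was -1.49 (SE 0.33, adjusted p = 0.000983), and it was -1.10 without the control at 10.12 (adjusted p = 0.00706). With the 3′ minus 5′ covariate it was -1.15 and not called (adjusted p = 0.0619). At days 7 and 91 it was -0.47 and 0.13 (adjusted p 0.340 and 0.823). The treated groups kept a mean between 7.04 and 7.37 throughout, and what varied was the controls, at 8.26, 7.66, 8.58 and 7.24.

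Asl (chr5:130011258-130024381), which splits argininosuccinate into arginine and fumarate, was the enzyme called higher. The day 1 controls read 11.86, 11.97, 12.08 and 12.00 and the treated livers 12.71, 12.50, 12.11, 12.21 and 12.31. No array overlapped, and the difference was 0.39 (SE 0.09, adjusted p = 0.00120), or 0.45 without the array with pancreas markers. The day 28 controls read 12.21, 12.04, 12.28, 12.03 and 12.46 and the treated livers 12.46, 12.58, 12.50, 12.57 and 12.30. These overlapped, with a difference of 0.28 (SE 0.08, adjusted p = 0.0128), which was not called without day 28 control replicate 4 (0.24, adjusted p = 0.0518), with the spike-in covariate (0.21, adjusted p = 0.0913) or with the 3′ minus 5′ covariate (0.19, adjusted p = 0.263). At day 91 the sign turned, with controls at 12.39, 12.54, 12.63, 12.52 and 12.60 and treated livers at 12.36, 12.38, 12.35, 12.41 and 12.32. That difference of -0.17 was not called (SE 0.08, adjusted p = 0.141).

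Arg1 (chr10:24915207-24927470), the cytosolic arginase that releases urea, was called at day 28, with controls at 13.92, 13.87, 13.96, 13.99 and 13.96 and treated livers at 13.74, 13.79, 13.74, 13.81 and 13.87. The groups touched at 13.87 after rounding, with every treated array below every control, and the difference was -0.15 (SE 0.04, adjusted p = 0.00245). At days 1, 7 and 91 it was between -0.05 and 0.00 and not called.

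Hal (chr10:93488768-93516761), histidine ammonia-lyase, starts histidine breakdown. Its treated and control arrays overlapped on every day, over a range of 11.05 to 12.01, and its differences of -0.16, 0.08, -0.02 and -0.02 were not called (adjusted p 0.229, 0.598, 0.917 and 0.927).

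Hsd17b13 (chr5:103955442-103977388), a hepatocyte protein of the lipid droplet surface, gave the smallest p of the members at day 1. The day 1 controls read 11.34, 11.16, 11.15 and 11.49 and the treated livers 10.53, 10.80, 10.72, 11.003 and 10.79. All treated arrays lay lower, by -0.52 (SE 0.08, adjusted p = 5.09e-06). At day 28 the controls read 11.48, 11.31, 11.62, 11.43 and 11.33 and the treated livers 11.18, 11.21, 11.30, 11.29 and 11.21. The groups were again apart, but the difference was -0.19 (SE 0.07, adjusted p = 0.0403). It missed the threshold when any of day 28 control replicates 1, 3 and 4 or phenobarbital replicates 1, 2 and 5 was left out, with values of -0.19 to -0.15, and with either covariate (-0.17 and -0.16). At days 7 and 91 the differences were -0.10 and 0.16 (adjusted p 0.368 and 0.114). The dimmer probe set 1425589_at gave -0.57, -0.26, -0.39 and -0.23, called at days 1 and 28 (adjusted p 6.89e-05 and 0.00296), so that the probe sets differed in sign at day 91, where neither was called.

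**Figure D2:**
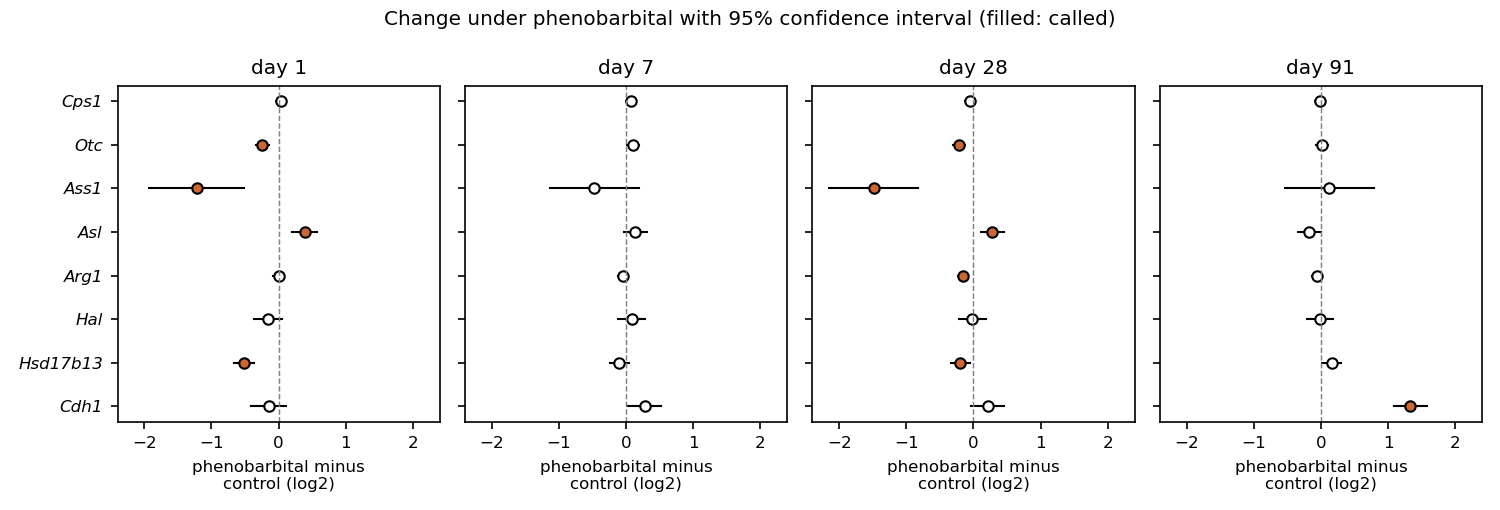
Phenobarbital minus control on the log2 scale (horizontal axis) for each member (vertical axis) at the 4 times, with 95% confidence intervals and filled points for called changes. The day 91 panel has 1 filled point, Cdh1 at 1.33, and the day 7 panel has none.

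Cdh1 (chr8:106603350-106670247) was called at day 91, and in the fit over all groups at no earlier time. The day 91 controls read 9.62, 9.14, 8.72, 9.47 and 8.82 and the treated livers 10.79, 10.12, 10.64, 10.36 and 10.52. Every treated array lay above every control, a separation in either direction shown by 11.3% of all genes at that time. The difference was 1.33 (SE 0.12, 95% confidence interval 1.08 to 1.58, adjusted p = 4.76e-10), a 2.51-fold higher signal, and it ranked 35 among the rises of the 12580 genes. It stayed between 1.22 and 1.45 when any array of day 91 was left out.

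Before that the groups were close. Day 1 controls read 10.67, 10.88, 10.92 and 10.93 and treated livers 10.51, 10.56, 10.74, 10.88 and 10.83, a difference of -0.15 (SE 0.13, adjusted p = 0.394). Day 7 controls read 10.55, 10.69, 10.66, 10.53 and 10.76 and treated livers 10.99, 10.70, 10.98, 10.81 and 11.11, a difference of 0.28 (SE 0.12, adjusted p = 0.110). Day 28 controls read 10.41, 10.46, 10.23, 10.52 and 10.40 and treated livers 10.52, 10.62, 10.68, 10.70 and 10.59, a difference of 0.21 (SE 0.12, adjusted p = 0.184). Fitted to the 2 groups of the day alone, the same differences were called at day 7 (adjusted p = 0.0434) and day 28 (adjusted p = 0.0274). Of the 11 other settings, 10 left Cdh1 uncalled at day 7, and 10 at day 28. The day 7 difference ran from -0.02 to 0.32 over these settings, so its sign was not always kept, and the day 28 difference from 0.21 to 0.40. The groups overlapped on each of these days, narrowly at day 28.

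The day 91 difference came with a fall in the controls and not with a called rise in the treated livers. Control means were 10.85 ± 0.12 (SD, n = 4), 10.64 ± 0.10, 10.40 ± 0.11 and 9.15 ± 0.39 (SD, n = 5 each) at days 1, 7, 28 and 91. From day 1 the controls fell by 0.45 on the log2 scale to day 28 (adjusted p = 0.0110), where 11.8% of genes were called lower, and by 1.70 to day 91 (SE 0.13, adjusted p = 2.91e-12), where 16.6% were. Between days 28 and 91 they fell by 1.25 (adjusted p = 2.07e-08), where 5.13% of all genes were called lower. Treated means were 10.70 ± 0.16, 10.92 ± 0.16, 10.62 ± 0.07 and 10.48 ± 0.26 (SD, n = 5 each). Treated livers at day 91 differed from those at day 1 by -0.22 (SE 0.12, 95% confidence interval -0.46 to 0.03, adjusted p = 0.137). With the spike-in or the 3′ minus 5′ covariate that small fall was called, at -0.36 and -0.38 (adjusted p 0.0183 and 0.0201). Since the same day 91 controls enter both contrasts, the rise under treatment and the fall in controls are not separate evidence.

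Of all genes, 2082 were lower in day 91 than in day 1 controls, 581 were higher under phenobarbital at day 91, and 195 were both. In 89 of those 195, Cdh1 among them, the treated livers were not called different between days 1 and 91.

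**Figure D3:**
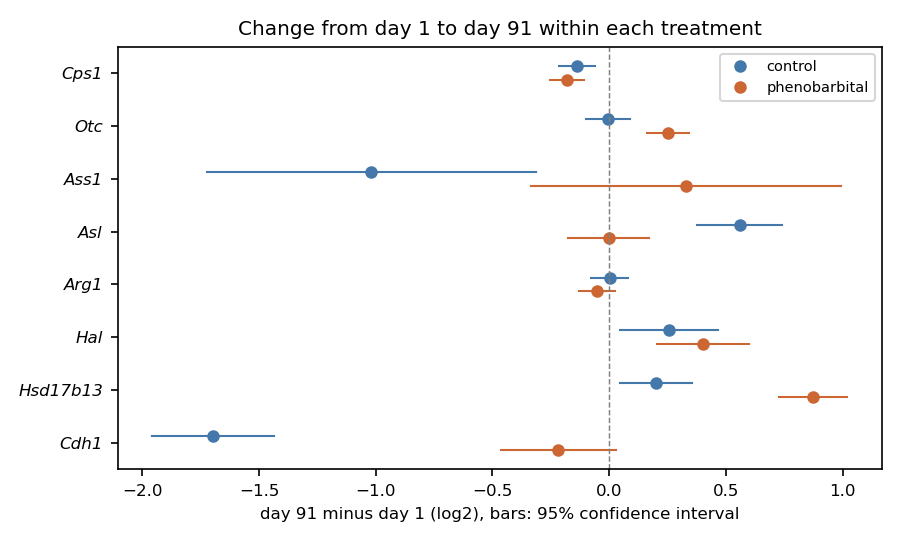
Day 91 minus day 1 on the log2 scale (horizontal axis) within controls and within phenobarbital livers for each member (vertical axis), with 95% confidence intervals. Cdh1 lies at -1.70 in controls and -0.22 in treated livers, whereas Hsd17b13 lies at 0.20 and 0.87.

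As Cdh1 alone was called at day 91, no other member could combine a fall in controls with a called difference at that time. Ass1 also fell in controls between days 28 and 91, by 1.34 on the log2 scale (limma, adjusted p = 0.00622), where 5.13% of genes were called lower. Its treated livers differed by 0.27 over that interval and were not called (adjusted p = 0.588). From day 1 to day 91, where 36.2% of genes were called in controls and 49.1% in treated livers, Asl rose by 0.56 in controls (adjusted p = 9.44e-06) and was -0.00 in treated livers (adjusted p = 0.985). Hsd17b13 rose by 0.87 in treated livers (adjusted p = 3.09e-12) and by 0.20 in controls (adjusted p = 0.0388). That control rise was not called without day 1 control replicate 2 or 3 or day 91 control replicate 1, 2 or 3, at 0.16 to 0.20 (adjusted p 0.0566 to 0.154). It was called under all 10 other settings, at 0.20 to 0.40. The dimmer Hsd17b13 probe set 1425589_at gave a larger control rise, of 0.60, so the size of that rise depended on the probe set. Otc rose by 0.25 in treated livers (adjusted p = 1.11e-05) and was at -0.01 in controls (adjusted p = 0.932). Cps1 fell by 0.14 in controls and by 0.18 in treated livers on the log2 scale (adjusted p 0.00439 and 6.67e-05), and under quantile normalization its control value was -0.10 and not called (adjusted p = 0.0502). Ass1 fell by 1.02 in controls (adjusted p = 0.0209), at -0.84 and not called once control replicate 2 of day 1 was left out (adjusted p = 0.0915), and its treated difference of 0.33 was not called. Hal rose by 0.40 in treated livers (adjusted p = 0.000814) beside 0.26 in controls (adjusted p = 0.0510). Arg1 was called in neither.

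Whether the phenobarbital effect itself depended on time was tested by an F test over the 4 days, which called 5 of the 8 members where 35.1% of all genes were called. Cdh1 (adjusted p = 2.77e-06), Otc (0.000164), Hsd17b13 (0.000172), Asl (0.00312) and Ass1 (0.0226) passed, and Cps1, Arg1 and Hal did not (0.211, 0.110 and 0.50). Between pairs of times the effect differed for 2 members from day 1 to 7, 0 from day 1 to 28, 5 from day 1 to 91, 1 from day 7 to 28, 1 from day 7 to 91 and 5 from day 28 to 91 (limma). The 0 from day 1 to 28 stood beside 3 members with an unadjusted p under 0.05 (Arg1, Cdh1 and Hsd17b13). The same contrasts were called for 21.3%, 3.25%, 30.4%, 11.8%, 0.723% and 21.7% of all genes. The member whose effect differed from day 7 to 91 was Cdh1, by 1.05 (SE 0.17, adjusted p = 0.000488). The F test over control groups called all 8 members, against 66.0% of genes. That over treated groups, added after the Cdh1 values were seen, called 6, against 63.1%, with Ass1 and Asl the exceptions (adjusted p 0.789 and 0.0796).

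The contrast of Cdh1 with the enzymes was tested directly, as the change of Cdh1 minus the change of each other gene on the same arrays. At day 91 the Cdh1 change was larger than that of all 7 other members. The difference was 1.34 against Cps1 (95% confidence interval 1.07 to 1.61), 1.32 against Otc, 1.20 against Ass1, 1.50 against Asl, 1.39 against Arg1, 1.35 against Hal and 1.17 against Hsd17b13, with adjusted p between 1.29e-12 and 0.000159. The same test was called for 99.7% of 12579 genes, so the contrast at day 91 sets Cdh1 apart from nearly all genes and is not particular to these enzymes. At day 28 it was called for Otc (0.42), Ass1 (1.70) and Hsd17b13 (0.41), where 22.2% of genes were called. At day 7 it was called for Ass1 (0.75) and Hsd17b13 (0.38), against 34.9%, and at day 1 for Ass1 (1.07), against 8.39%. The counts of 1, 2 and 3 at days 1, 7 and 28 ranged over 0 to 2, 0 to 3 and 1 to 3 when 1 array was left out.

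**Figure D4:**
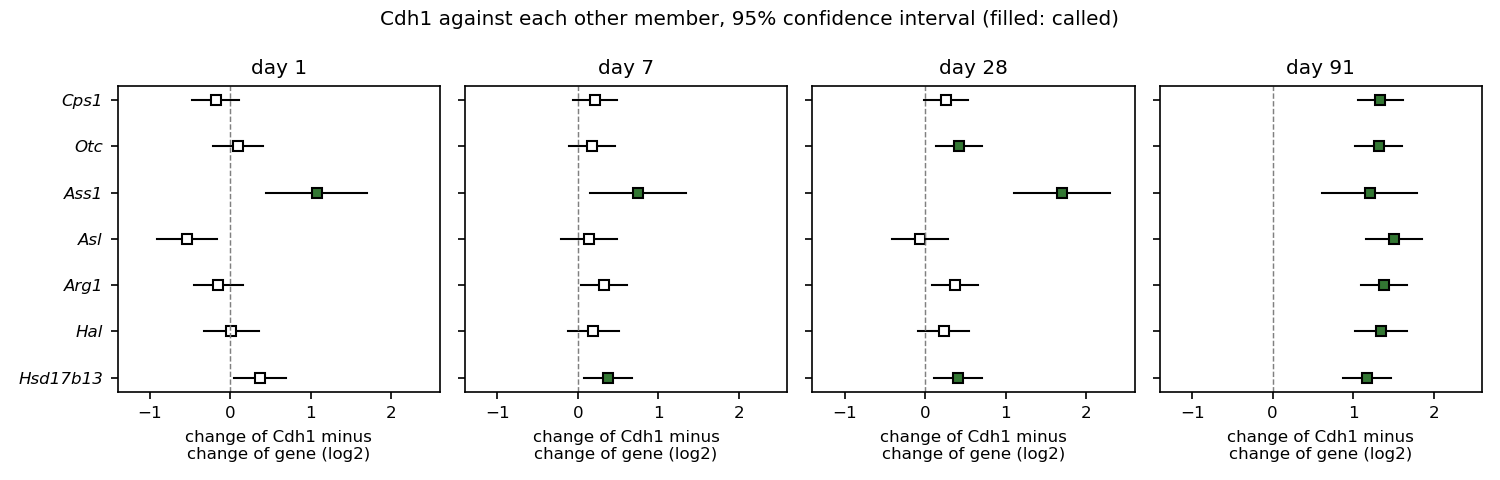
Change of Cdh1 minus change of each other member on the log2 scale (horizontal axis) at the 4 times, with 95% confidence intervals and filled squares for called differences. The day 91 squares all lie between 1.17 and 1.50, and the day 1 panel has 1 filled square, Ass1 at 1.07.

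Beyond the members, 14 other urea cycle and ammonia-handling genes were tested. At days 1, 7, 28 and 91 they held 1, 0, 1 and 0 higher and 8, 4, 4 and 7 lower genes, with medians of -0.19, -0.13, -0.07 and -0.19. For this and the next lists, 15.8%, 5.64%, 11.2% and 4.62% of all genes were higher and 16.7%, 11.4%, 18.1% and 16.1% lower, with medians of 0.01, -0.05, -0.02 and -0.07. No list was refitted with a covariate. With the 3′ minus 5′ covariate the day 28 calls over all genes went from 1403 higher and 2276 lower to 411 and 616. Rhbg, an ammonium transporter, was higher at day 28, by 0.85 (adjusted p = 8.50e-07). Slc7a2, a transporter of cationic amino acids, was lower at days 1 and 28, by -0.51 and -0.74 (adjusted p 0.00660 and 0.000142). Got1, the cytosolic aspartate aminotransferase, was lower at day 91, by -0.59 (adjusted p = 0.00579).

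Of 35 other amino acid catabolism genes, 2, 4, 2 and 0 were higher and 10, 2, 9 and 12 lower, with medians of -0.01, 0.05, -0.03 and -0.12. Dbt, of the branched-chain keto acid dehydrogenase, was lower at days 1 and 28 (-0.68 and -0.56). Aldh6a1, of valine breakdown, was lower at day 1 (-0.52, adjusted p = 1.46e-05), and Prodh2, of hydroxyproline breakdown, at days 7, 28 and 91 (-0.28, -0.25 and -0.50). Of 14 other periportal genes, 0, 1, 1 and 1 were higher and 5, 2, 5 and 5 lower. The lists share genes, so their counts are not separate. Slc7a2 was listed both as periportal and with the urea cycle and ammonia genes, and Glul, Oat and Rhbg both with the latter and as pericentral. Etnppl was lower at days 1, 28 and 91 (-1.03, -0.83 and -0.86), Pck1, of gluconeogenesis, at day 28 (-1.01, adjusted p = 0.0178), and Hsd17b6 at days 1, 28 and 91 (-0.45, -0.68 and -0.90). Of 17 pericentral genes, 3, 3, 4 and 3 were higher and 6, 7, 5 and 3 lower, among them Lgr5, a Wnt pathway receptor, at days 1, 7 and 28 (-1.13, -0.61 and -1.04), Slc1a2, a glutamate transporter, at the same days (-0.96, -0.68 and -0.58) and Avpr1a, a vasopressin receptor, at days 7 and 28 (-0.89 and -0.38).

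Of 21 other cadherin and adherens junction genes, 2, 0, 2 and 1 were higher and 9, 6, 7 and 5 lower at days 1, 7, 28 and 91. Over all genes 16.7%, 11.4%, 18.1% and 16.1% were lower, so that the 5 of 21 at day 91 lay near that background. Cdh2, the N-cadherin of hepatocytes, was lower at days 1 and 28 (-0.88 and -0.51, adjusted p 3.02e-05 and 0.00654), with values of 0.09 and 0.22 at days 7 and 91 that were not called. Ceacam1, an adhesion molecule of the canalicular membrane, was lower at the same times (-1.44 and -1.13), as was Ocln, a tight junction protein, at day 28 (-0.88). Of 15 transcriptional repressors and regulators of E-cadherin and epithelial state, 0 were called higher on each day, and 5, 4, 4 and 3 were lower, the 3 of 15 at day 91 near the 16.1% of all genes. These included the coactivator Ppargc1a at days 1 and 28 (-1.39 and -1.36), Foxa3 at days 1 and 7 (-0.75 and -0.996) and the repressor Snai2 at day 28 (-0.74, adjusted p = 0.0284). At day 91, Snai2 stood at 0.55 and was not called (adjusted p = 0.126).

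Of 14 other lipid droplet genes, set beside Hsd17b13, 2, 1, 3 and 1 were higher and 3, 3, 2 and 8 lower. Plin5, a droplet coat protein, was lower at all 4 times (-0.58, -0.83, -0.73 and -0.46). Abhd5, the lipase coactivator, was higher at days 1, 7 and 28 (0.45, 0.81 and 0.77), and Pnpla3 at days 28 and 91 (1.55 and 1.30).

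**Figure D5:**
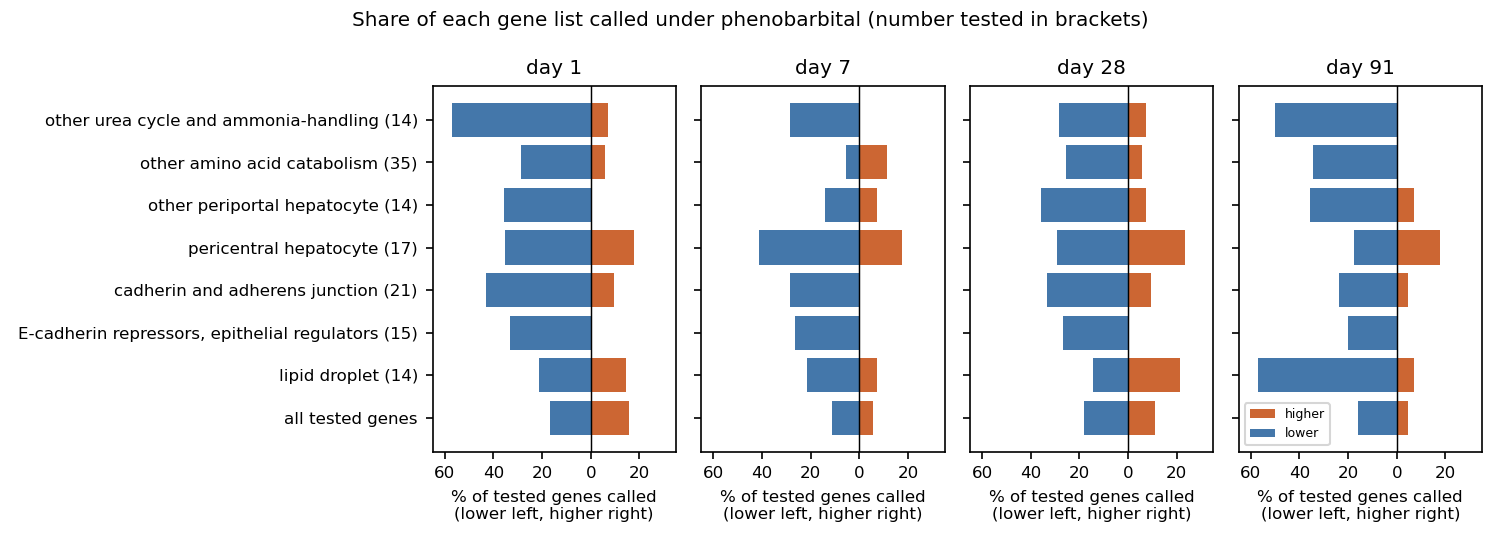
Share of tested genes called lower (left bars) and higher (right bars) under phenobarbital, in percent (horizontal axis), for 7 gene lists and for all tested genes (vertical axis) at the 4 times. At day 91, 7 of 14 other urea cycle and ammonia genes and 12 of 35 other amino acid catabolism genes were lower, beside 16.1% of all genes.

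Cholangiocytes also carry E-cadherin, so their markers are given beside the Cdh1 course. Of 12 listed, 9 had a probe set and 6 were tested. Their list mean was 5.91 to 5.96 in day 1 controls, 5.73 to 5.86 in day 91 controls and 5.63 to 5.77 in day 91 treated livers, the latter overlapping. At day 91, 1 of the 6 was called under phenobarbital, Krt23 lower by -0.36 (adjusted p = 0.0336), while Epcam and Krt19 stood at 0.12 and -0.11 and were not called. Between day 1 and day 91 controls 1 of the 6 was called: Pkhd1, the gene of a cilium protein of bile duct cells, fell by 1.35 on the log2 scale (adjusted p = 1.68e-05). Its mean was 8.23 ± 0.33 in day 1 controls (SD, n = 4), 6.88 ± 0.57 in day 91 controls and 7.10 ± 0.18 in day 91 treated livers (SD, n = 5 each). In treated livers 3 of the 6 cholangiocyte markers were lower at day 91 than at day 1, with a median of -0.24, beside a median of 0.01 in controls. Cftr, another marker of these cells, lay in the lower quartile of every array. Over the same interval the controls were lower for 6 of 6 endothelial, 6 of 6 Kupffer cell and 5 of 6 stellate cell markers (medians -0.49, -0.81 and -0.58). The treated livers were lower for the same numbers, with medians of -0.52, -0.73 and -0.69, and the part of these cells in the Cdh1 course was not tested. Over all genes, 16.6% were called lower in controls. In treated livers 49.1% of all genes were called in either direction. The share called lower alone is not given here, so the treated counts of lower markers have no like background. The medians over all genes were 0.04 in controls and -0.04 in treated livers.

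Under phenobarbital, the endothelial list had 1, 2, 4 and 2 of 6 genes lower and the stellate list 0, 2, 3 and 2 of 6 at days 1, 7, 28 and 91, with no gene of either called higher. Over all genes 16.7%, 11.4%, 18.1% and 16.1% were lower on those days. The scavenger receptor Stab2 was lower at days 7, 28 and 91 (-0.38, -0.39 and -0.30), as was Reln of stellate cells (-0.60, -0.43 and -0.30). Of 5 hepatocyte markers, 2, 0, 2 and 1 were lower, with Apob at -0.21 and -0.19 at days 1 and 28. Ctrb1 and Prss2, pancreatic proteases, were called higher at day 1 (1.50 and 1.30), where replicate 3 of the treated group stood apart. In the Kupffer cell, lymphocyte and neutrophil lists the smallest p belonged to Clec4f (-0.32 at day 91, adjusted p = 0.0767), Cd3e (-0.17 at day 91, adjusted p = 0.0614) and S100a9 (-0.41 at day 91, adjusted p = 0.646), and these were not called.

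By the root mean square difference of the 4 log2 changes, the genes nearest to Cdh1 were Blnk (0.21), F2r (0.24), Eif4e3 (0.24), 4933438K21Rik (0.28) and Rarb (0.28). Their day 91 changes of 0.93, 0.86, 0.91, 1.07 and 0.89 were smaller in value than the 1.33 of Cdh1. From day 1 to day 91, Rarb, a retinoic acid receptor, and F2r, a thrombin receptor, were lower in controls by -1.51 and -0.35 (adjusted p 0.000109 and 0.0338), and the other 3 were not called there. Nearest to Ass1, the enzyme with the largest change, though read from a dim probe set, were Hectd2 (0.17), Ceacam1 (0.25), Srpk2 (0.27), Taok3 (0.29) and Irs2 (0.31). Likeness was measured over 4 times that share the day's controls across genes, and is a description.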

How the data were processed

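The deposited values are log2 signals of 39 Affymetrix mouse arrays of liver RNA, amplified by the GeneChip 3′ IVT Express procedure per the labels' protocols; the submitters' processing notes name GCOS. How probes were summarized and arrays normalized is not given in the sources used here. Array means lay between 6.22 and 6.26. No value was rescaled or imputed. The treatment protocol speaks of 28 days, and the durations given per sample, up to 91 days, were used. Every array is labelled liver, although the protocol for RNA extraction mentions kidney too.

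The platform annotation gave 1 gene symbol to 34945 of 45101 probe sets, after 64 control probe sets were set aside, several to 932 and none to 9160. Each gene was represented by its probe set of highest mean, and was tested when above the array median on at least 4 arrays. A mean per group was fitted in limma 3.58.1 under R 4.3.3 with a variance trend (31 residual and 4.46 prior degrees of freedom), and the fit was tested on simulated data. P-values are 2-sided and adjusted by Benjamini-Hochberg over all genes within each comparison. The Cdh1 contrast was fitted to Cdh1 minus each gene, without the trend. Precision is limited by the number of arrays.

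The members and lists were chosen with earlier results of these data known. Named were all members, up to 3 called genes with the largest change of each list, and the 5 genes nearest to Cdh1 and to Ass1. Alternatives were other scaling, filters, probe set rules, variance priors, array weights, covariates, the groups of 1 day alone, and leaving out each array.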

Additional observations from a re-analysis of the deposited data

Results flagged for a closer look

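The phenobarbital effect of a member differed between times in 14 of 48 tests of the difference itself (limma, adjusted over all genes). From day 1 to day 7 the effect on Otc moved by 0.34 (adjusted p = 0.000359) and that on Hsd17b13 by 0.42 (adjusted p = 0.00474), a contrast called for 21.3% of all genes. From day 1 to day 91, called for 30.4% of genes, the effect moved by 0.26 for Otc (adjusted p = 0.00297), 1.35 for Ass1 (0.0312), -0.56 for Asl (0.00113), 1.48 for Cdh1 (6.93e-07) and 0.67 for Hsd17b13 (3.53e-05). The Ass1 value missed the threshold without day 1 control replicate 2 (1.17), day 1 phenobarbital replicate 4 (1.25) or day 91 phenobarbital replicate 4 (1.20), with the spike-in covariate (1.14, adjusted p = 0.115) and with the 3′ minus 5′ covariate (1.10, adjusted p = 0.116). From day 7 to day 28 it moved by -0.31 for Otc (adjusted p = 0.00318), against 11.8% of genes. From day 7 to day 91 it moved by 1.05 for Cdh1 (adjusted p = 0.000488), against 0.723% of genes. From day 28 to day 91, called for 21.7% of genes, it moved by 0.22 for Otc (adjusted p = 0.0123), 1.61 for Ass1 (0.0145), -0.45 for Asl (0.00965), 1.12 for Cdh1 (0.00049) and 0.35 for Hsd17b13 (0.0152). With the 3′ minus 5′ covariate these 5 values were 0.12, 1.18, -0.34, 0.88 and 0.31 and not called (adjusted p 0.401, 0.309, 0.268, 0.0592 and 0.240). With the spike-in covariate Cdh1 was still called, and Otc, Ass1, Asl and Hsd17b13 were not (adjusted p 0.170, 0.141, 0.141 and 0.133). No array stood apart from its group by Dixon's criterion in 64 checks of the members, where chance gives about 3.2.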

How the results depend on the processing

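No paired analysis was made, because nothing in the labels pairs a treated with a control array. The labels give no replicate numbers, and those used here are the order of the arrays within each group. Cdh1 at day 91 was called under all 11 other settings, at 1.25 to 1.38, and its fall in controls from day 1 to day 91 ran from -1.72 to -1.68. Of 752 gene-level values, 717 kept their side of the threshold, 33 of them uncalled values that changed sign, 20 lost and 15 gained a call, and 0 called values reversed. At day 7 the count of called members went from 0 to 1 under quantile normalization (Arg1, -0.11), centring on the array median (Otc, 0.14), the mean of all probe sets (Otc, 0.23), array weights (Otc, 0.12), the 3′ minus 5′ covariate (Otc, 0.11) and a fit to the 2 groups of the day (Cdh1, 0.28), a fit that also called Cdh1 at day 28 (0.21). At day 28 it went from 5 to 3 with the spike-in covariate and to 1 (Arg1) with the 3′ minus 5′ covariate, where the 1403 higher and 2276 lower of all genes became 796 and 1390, and 411 and 616. At day 91 it went from 1 to 2 with the 2 groups alone (Asl, -0.17). With the spike-in covariate the members with a time-dependent effect went from 5 to 3 and those with a change in controls from 8 to 5. Hsd17b13 at day 28 was -0.16 and not called after centring. The cause of these moves was not tested.

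With each array left out in turn, the called members numbered 4 to 4 at day 1, 0 to 0 at day 7, 3 to 5 at day 28 (3 without day 28 control replicate 4) and 1 to 1 at day 91. Time-dependent effects numbered 5 to 5, changes in controls 6 to 8 and changes in treated livers 5 to 7. Members whose change differed from that of Cdh1 numbered 0 to 2, 0 to 3, 1 to 3 and 7 to 7. At day 1 they were 0 without control replicate 2 or 4 and 2 without phenobarbital replicate 3. At day 28 they were 1 without control replicate 1 or 3 or phenobarbital replicate 2, 3 or 4. At day 7 they were 0 without control replicate 2, 3 or 4 or phenobarbital replicate 1, 4 or 5, and 1 without control replicate 1 or 5 or phenobarbital replicate 3. Quantile normalization turned the 1982 higher and 2106 lower genes of day 1 into 2830 and 1705, and centring into 2683 and 1579. At day 7 the 709 and 1429 became 892 and 1079, and 931 and 879, at day 28 the 1403 and 2276 became 2350 and 1708, and 1938 and 1692, and at day 91 the 581 and 2023 became 778 and 1221, and 792 and 1076. Neither moved the median of all genes by more than 0.056.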
